A study of Mus musculus with 12 samples.

Results

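Atf4 encodes activating transcription factor 4, a basic leucine zipper (bZIP) factor of the ATF and CREB family and the main effector of the integrated stress response. It was taken by its symbol (ENSMUSG00000042406), 1 gene of 55536 gene IDs in the deposited count tables. The cells were embryonic fibroblasts of the mouse (MEF), a connective tissue cell in culture. They were kept for 6 h with 100 nM halofuginone (HF), which inhibits the charging of prolyl-tRNA by EPRS, or for the same time without it. Both conditions used high-glucose DMEM with dialyzed serum and antibiotics, so the controls too were in dialyzed serum. Total RNA and ribosome footprints (RPF, the fragments that ribosomes protect from nuclease) were sequenced from each, which gave 12 libraries in 4 groups of 3. Whether the 3 libraries of a group stem from separate cultures is not in the labels. The p-values thus measure the spread between libraries, which may be technical.

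In the integrated stress response, kinases such as GCN2, which senses uncharged tRNA, phosphorylate the initiation factor eIF2 and lower general translation initiation. The Atf4 mRNA carries short upstream open reading frames (uORF). Ribosomes that have translated the first of them are known to restart at an inhibitory frame when eIF2 is active, and to pass it and reach the Atf4 coding sequence when active eIF2 is scarce. ATF4 protein then pairs with other bZIP factors and binds C/EBP-ATF response elements (CARE) in genes for amino acid synthesis and transport, tRNA charging and stress signalling.

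Atf4 lies on chromosome 15 from 80255184 to 80257545 on the plus strand (RefSeq, GRCm38.p6), a span of 2362 bp including introns. It overlapped 0 other genes of the RefSeq table, and 0 other gene IDs bore its symbol. The 250 bases before its start are shown because ATF4 targets were searched for the element that ATF4 binds, and the same search was made in the promoter of Atf4 itself. The region is chr15:80254934-80255183 on the plus strand, with CCAAT boxes in capitals.
Atf4 promoter: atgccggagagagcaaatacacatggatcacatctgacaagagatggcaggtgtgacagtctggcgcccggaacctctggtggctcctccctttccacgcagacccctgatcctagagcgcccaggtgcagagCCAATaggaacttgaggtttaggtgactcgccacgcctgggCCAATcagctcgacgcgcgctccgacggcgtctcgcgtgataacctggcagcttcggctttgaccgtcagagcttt

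The 2 CCAAT boxes begin 117 and 76 bases before the start. CCAAT, searched on both strands, was present in the same window (250 bases before to 50 after the start) of 42.3% of 17492 protein-coding genes. The letters TGATGNAA (CARE) and TGACGTCA (the cAMP response element) had 0 matches in the Atf4 window on either strand.

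Library totals ran from 718096 to 1697554 counts in total RNA and from 562794 to 2527791 in footprints. The fibroblast label was checked with 9 marker genes, all detected in every group, including Vim, Col1a1 and Fn1. Their summed level, as CPM of the library total, was 9371 to 9625 in HF RNA and 7697 to 7819 in control RNA. Among footprints it was 11234 to 11917 CPM in HF and 15568 to 16694 CPM in control libraries. The sums are led by few abundant genes. Of the 7 markers tested in RNA, 1 was higher (Fn1, 1.69) and 4 lower, with a median log2 change of -0.68. Of all genes tested in RNA, 22.2% were higher and 21.4% lower at an adjusted p under 0.05. Of the 8 markers tested in footprints 2 were higher and 5 lower, with a median of -0.62, against 22.4% and 20.9% of all genes. The part of these shifts in the Atf4 values was not tested. The markers of epithelial, immune, endothelial, neural and muscle cells summed to at most 15.7 CPM in any list and library, and Pecam1, Adgre1, Krt8, Krt5, Cd3e and Lyz2 had 0 counts in all groups. Gm42418, a locus that overlaps ribosomal RNA, took 7.35% to 9.48% of the counts in HF RNA and 11.8% to 13.7% in control RNA. In bulk samples such as these, a change in RNA per cell cannot be told apart from a change in which cells are present.

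Atf4 was higher in HF cells in both readouts, and far more so among footprints than in RNA. In total RNA it had 979, 811 and 1463 counts in the HF libraries, against 750, 469 and 545 counts in the control libraries. As CPM (counts scaled to library size with TMM factors within the assay), these were 861, 797 and 861 CPM in HF and 604, 661 and 572 CPM in control libraries. Every HF library lay above every control library.

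Among footprints Atf4 had 2080, 714 and 630 counts in the HF libraries, against 438, 297 and 133 counts in the control libraries. On the CPM scale these were 1170, 1194 and 1194 CPM in HF and 178, 182 and 187 CPM in control libraries. The 2 groups were far apart. With 3 libraries in each, the spread within a group is only roughly known. The coefficient of variation between libraries was 1.17% in HF and 2.55% in control footprints, below the 3.40% and 6.63% that counting error alone gives for HF and control, and 4.43% in HF and 7.35% in control RNA, where counting error gives 3.13% and 4.20%.

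**Figure D1:**
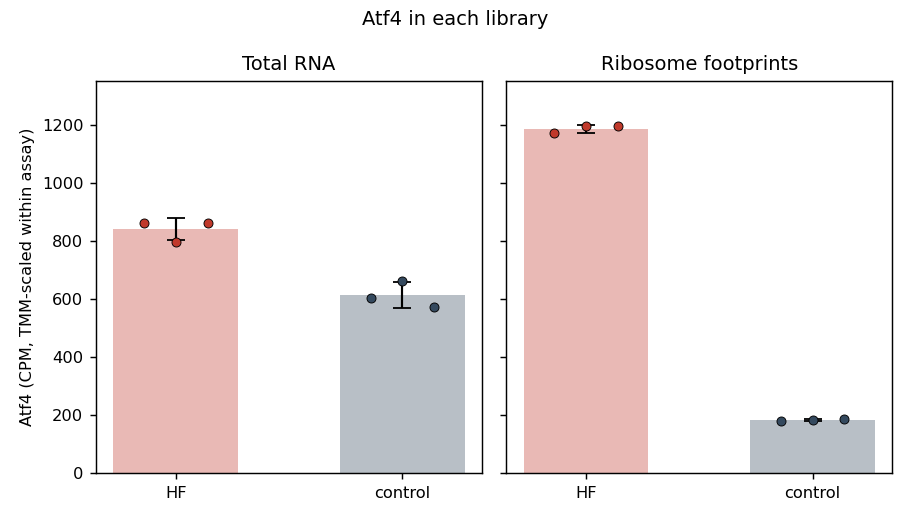
Atf4 in CPM in each library, for total RNA (left) and ribosome footprints (right). Bars are means and error bars SD of 3 libraries (points). HF RNA averaged 840 ± 37.2 CPM and control RNA 612 ± 45.0 CPM, while HF footprints averaged 1186 ± 13.8 CPM and control footprints 182 ± 4.65 CPM.

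The fitted change in RNA was 0.46 on the log2 scale (SE 0.093, adjusted p = 3.65e-05 by edgeR), a 1.37-fold rise. It ranked 2534 of 9145 genes by fold. A change was called for 43.7% of those genes at an adjusted p under 0.05, 22.2% higher and 21.4% lower, so a call in RNA was common. The footprint change was 2.71 (SE 0.10, adjusted p = 1.79e-20), a 6.53-fold rise. That ranked 84 of 8373 protein-coding genes, of which 43.3% were called, 22.4% higher and 20.9% lower.

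Translational efficiency (TE), the footprints of a gene relative to its RNA, rose by 2.26 on the log2 scale (SE 0.13, adjusted p = 2.34e-19 by edgeR's interaction test). This was a 4.77-fold rise. Among 7926 genes the Atf4 change ranked 21 by size, at percentile 99.7, and it had the smallest p of all. TE was called for 14.4% of these genes, 6.13% higher and 8.23% lower. On the log2 scale the RNA change was 17.0% of the footprint change and the TE change 83.3%; they come from separate fits and need not sum exactly. The counted feature (whole transcript or coding sequence) is not given in the sources used here, so footprints on the uORFs may be part of the Atf4 counts in both conditions. The values therefore do not separate ribosomes on the uORFs from ribosomes on the coding sequence.

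**Figure D2:**
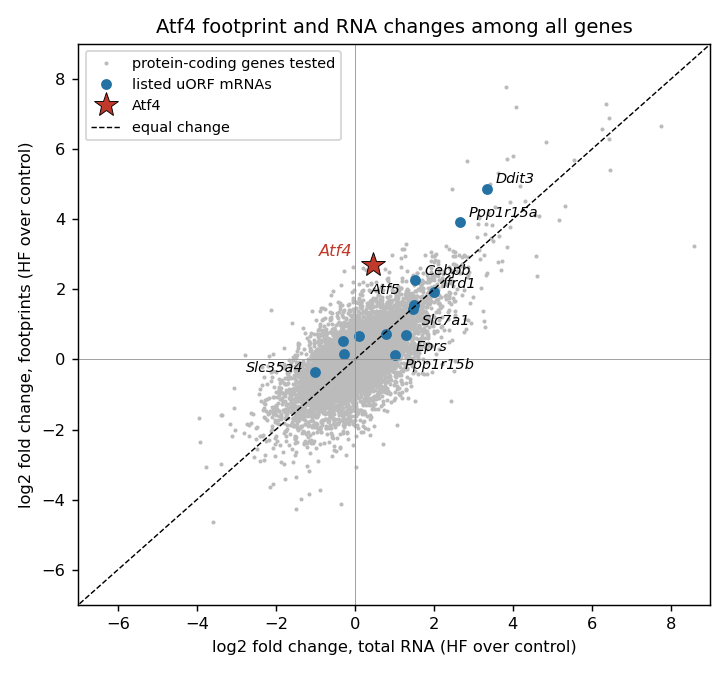
Log2 fold change of HF over control in total RNA (x axis) and in footprints (y axis) for protein-coding genes tested in both (grey), with listed uORF mRNAs in blue and Atf4 as a star. The dashed line marks equal change. Atf4, at 0.46 and 2.71, sits well above it, while Atf5, Ifrd1 and Slc7a1 lie close to it and Ppp1r15b and Eprs lie below it.

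The level of footprints over RNA showed where Atf4 stood among other mRNAs in each condition. In HF cells its footprints were 0.37 log2 above its RNA (SE 0.085, adjusted p = 2.09e-04 by edgeR), relative to the bulk of genes, which is 1.29-fold and percentile 64.6 of 7926 genes. In control cells they were at -1.82 log2 (SE 0.095, adjusted p = 3.75e-22), a ratio of 0.283 and percentile 6.08. Atf4 was thus among the mRNAs with few footprints per RNA in control cells and slightly above the median mRNA in HF cells. Calls of this kind are frequent: 55.8% of genes were called in HF cells, 27.8% higher and 28% lower, and 57.3% in control cells, 29.7% higher and 27.6% lower. Such a level also depends on how each kind of library was made. The change between conditions is free of this only if the dependence is the same in HF and control libraries, which was not tested.

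Pairing each footprint library with each RNA library of its condition gave 9 ratios of CPM values per condition. These ratios reuse the same libraries, so the 9 are not independent. They ran from 1.25 to 1.38 in HF cells and from 0.258 to 0.310 in control cells. The percentiles among genes ran from 61.2 to 67.2 in HF cells and from 5.77 to 10.3 in control cells, with no overlap.

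**Figure D3:**
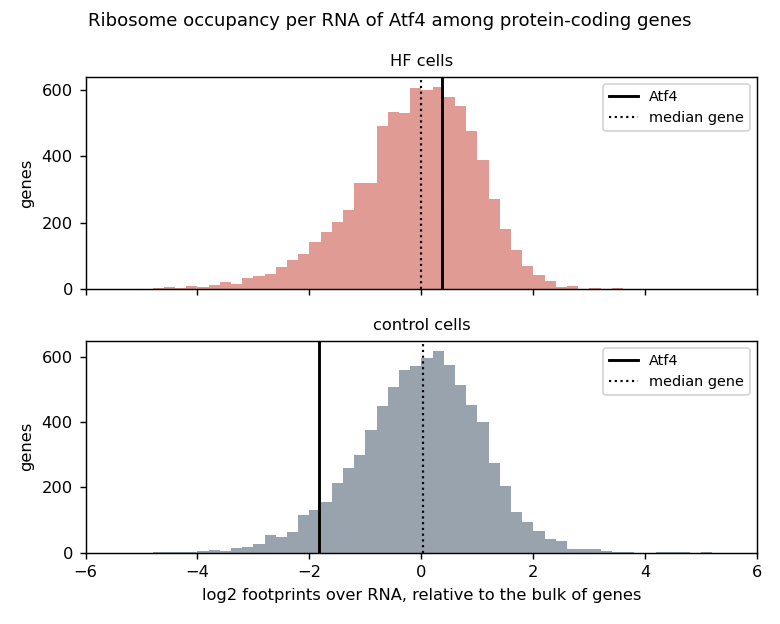
Number of protein-coding genes by log2 footprints over RNA relative to the bulk of genes, in HF cells (top) and control cells (bottom). The solid line marks Atf4, at 0.37 in HF cells and -1.82 in control cells, and the dotted line the median gene.

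The other mRNAs known for regulatory uORFs were mostly higher in RNA, and a minority was higher in TE. Of 14 listed, all were tested in RNA, where 9 were higher and 2 lower, against 22.2% and 21.4% of all genes (median log2 change 1.16, against -0.02 over all genes). In footprints 8 of 13 were higher and 0 lower (edgeR; 9 and 0 at an unadjusted p under 0.05, 7 and 0 by DESeq2), against 22.4% and 20.9% of all genes, with a median of 0.72. In TE 4 of 13 were higher and 2 lower, against 6.13% and 8.23% of all genes, with a median of 0.44 against 0.00 over all genes.

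Ddit3, which encodes the stress factor CHOP, had 262, 80 and 85 footprint counts in HF and 14, 8 and 2 in control libraries. Its RNA had 69, 61 and 117 counts in HF and 10, 4 and 4 in control libraries. The groups were far apart in both assays, with log2 changes of 3.34 in RNA and 4.87 in footprints. Its TE change of 1.53 (adjusted p = 0.043 by edgeR) rested on these low control counts and lost its call when any library other than RNA control 3 was left out, with the value lowest at 1.16 without RNA control 1.

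Ppp1r15a encodes GADD34, the inducible subunit of the eIF2 phosphatase that feeds back on the response. It had 208, 212 and 303 footprint CPM in HF and 11.4, 22.1 and 14.1 in control libraries, a log2 change of 3.92, and its RNA changed by 2.66. Its TE change was 1.27 (adjusted p = 0.0074), falling to 0.97 without RNA control 3 (adjusted p = 0.080) or without RPF control 1 (adjusted p = 0.072). The HF and control footprint values did not overlap.

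Atf5, the closest relative of Atf4 and an mRNA with a similar uORF arrangement, rose about equally in both assays. It had 174, 182 and 131 footprint CPM in HF and 57.2, 50.3 and 61.8 in control libraries, and 115, 135 and 151 RNA CPM in HF and 49.1, 52.2 and 42.0 in control libraries. The log2 changes were 1.55 in footprints and 1.49 in RNA, and TE changed by 0.07 (adjusted p = 0.92 by edgeR). Ifrd1, a transcriptional regulator, likewise rose by 2.00 in RNA and 1.93 in footprints, with a TE change of -0.07.

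The uORF mRNAs lower in TE were Ppp1r15b, the constitutive eIF2 phosphatase subunit CReP, and Eprs, the tRNA synthetase that HF targets. Ppp1r15b RNA rose by 1.02, its footprints changed by 0.13 (adjusted p = 0.52) and its TE fell by 0.88 (adjusted p = 2.2e-04). Eprs rose by 1.30 in RNA and 0.71 in footprints, and its TE fell by 0.58 (adjusted p = 0.012). Of the others called higher, Eif4g2, an initiation factor, had a TE change of 0.44 (adjusted p = 0.0038), and Cebpb had 0.75 (adjusted p = 0.032), a call lost when any 1 of 8 libraries was left out. The highest TE change among the tested members of the list, that of Ddit3, was 1.53, against 2.26 for Atf4; the difference between the genes was not tested.

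Upstream of Atf4, the eIF2 kinases showed no call, and the list of eIF2 signalling genes was called in RNA about as often as all genes. Of 14 genes for the eIF2 kinases, their regulators, eIF2 and its exchange factor eIF2B, 3 were higher and 3 lower in RNA, against 22.2% and 21.4% of all genes, and 2 higher and 5 lower in footprints, against 22.4% and 20.9%. None of the eIF2 kinases passed the test in RNA, footprints or TE with all libraries in. Eif2ak4, which encodes GCN2, had log2 changes of -0.47 in RNA (adjusted p = 0.20) and 0.03 in footprints (adjusted p = 0.94). Eif2ak1, the heme-regulated kinase, had an RNA change of -0.35 (adjusted p = 0.19), which was called at -0.54 without RNA control 2. Impact, an inhibitor of GCN2 activation, rose by 1.53 in RNA and 1.54 in footprints. Of the eIF2B subunit genes, Eif2b1 fell by 0.74 in RNA and 0.83 in footprints, and Eif2b2 and Eif2b5 fell in footprints by 0.68 and 0.86.

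In TE 0 of these 14 genes were higher and 2 lower by edgeR, against 6.13% and 8.23% of all genes (1 higher at an unadjusted p under 0.05, and 0 by DESeq2). Of the 7 genes around the eIF2 phosphatase, 4 were higher and 1 lower in RNA, against 22.2% and 21.4% of all genes. In footprints 3 were higher, against 22.4%. The catalytic subunit gene Ppp1ca fell by 1.02 in RNA and changed by -0.03 in footprints (adjusted p = 0.81), with a TE rise of 1.00 (adjusted p = 4.5e-08).

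Factors for start site choice and reinitiation, the steps on which Atf4 translation depends, were either not called or lower in footprints. Of 11 tested, 2 were higher and 3 lower in RNA, against 22.2% and 21.4% of all genes. In footprints 0 were higher and 4 lower (edgeR; 1 higher at an unadjusted p under 0.05 and 0 by DESeq2), against 22.4% and 20.9%. In TE 1 was higher and 4 lower, against 6.13% and 8.23%, and by DESeq2 1 was higher and 2 lower. Eif1, which guards the fidelity of start codons, had 87.2, 83.6 and 100.5 footprint CPM in HF and 158, 164 and 166 in control libraries. Its RNA was higher by 0.71, so its TE fell by 1.56 (adjusted p = 6.1e-07). Bzw1, known as a mimic of the factor eIF5, fell by 1.18 in footprints and by 1.42 in TE. Denr, a reinitiation factor known to act on Atf4, had changes of -0.05 in RNA (adjusted p = 0.83) and 0.42 in footprints (adjusted p = 0.074). The footprint change was called at 0.63 without RPF HF 3.

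ATF4 protein is short-lived and is marked for degradation by the SCF ubiquitin ligase with βTrCP. Of 7 genes tested for its stability and cofactors, 3 were higher and 1 lower in RNA, against 22.2% and 21.4% of all genes. In footprints 1 was higher and 3 lower (0 and 3 by DESeq2), against 22.4% and 20.9%. Btrc, which encodes βTrCP, had changes of 0.42 in RNA (adjusted p = 0.36) and -0.41 in footprints (adjusted p = 0.25). Cul1, the SCF scaffold, fell by 0.55 in footprints and by 1.09 in TE (adjusted p = 5.6e-04). Its RNA was higher by 0.55, a call lost without RNA control 2 (0.37) or RNA HF 3 (0.44). Protein levels were not measured.

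Most bZIP partners of ATF4 were higher in both assays. Of 17 tested in RNA, 14 were higher and 0 lower (15 higher and 0 lower at an unadjusted p under 0.05, and 14 and 0 by DESeq2), against 22.2% of all genes higher. The median log2 change was 1.53. In footprints 15 of 16 were higher and 0 lower (15 and 0 unadjusted, 14 and 0 by DESeq2), against 22.4% of all genes higher, with a median of 1.94. Those not called in RNA were Cebpd (0.52, adjusted p = 0.21), Nfe2l1 (0.28, adjusted p = 0.070) and Nfe2l2 (0.39, adjusted p = 0.22), and Nfe2l1, at -0.06, was not called in footprints. The RNA change of Nfe2l1 was called at 0.37 without RNA control 3 and at 0.41 without RNA HF 1. The footprint call of Mafk, at 1.09, was lost when any 1 of 3 footprint libraries was left out. Atf3, itself an ATF4 target, had 199, 166 and 146 footprint CPM in HF and 5.68, 6.13 and 15.5 in control libraries, a log2 change of 4.52, and its RNA changed by 4.32. Cebpg, a known dimer partner of ATF4, rose by 1.85 in RNA and 1.90 in footprints.

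In TE 4 of 16 partners were higher and 0 lower (4 and 0 by edgeR, at an unadjusted p under 0.05 and by DESeq2). Of all genes, 6.13% were higher and 8.23% lower in TE by edgeR. Jund, an AP-1 subunit, had a TE change of 1.27 (adjusted p = 4.1e-05) and Fosl2 one of 0.93 (adjusted p = 3.8e-04), and the others were Cebpb and Ddit3. Cebpb and Ddit3 are also on the uORF and target lists, so the same calls are counted there. Jund rose by 0.72 in RNA and 1.98 in footprints. Fos had 2 RNA counts over the control libraries, so no fold is given for it. It passed the count filter through its HF libraries alone, so it could only come out higher in RNA. It is kept in the RNA count and median of the list.

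Among the ATF and CREB relatives, 7 of 13 were higher and 2 lower in RNA (7 and 0 by DESeq2; median 0.85), against 22.2% and 21.4% of all genes. In footprints 8 of 11 were higher (6 by DESeq2; median 0.84), against 22.4% of all genes. The footprint calls of Atf1 (0.77), Atf2 (0.75) and Creb1 (0.78) were lost when any 1 of 3, 3 and 4 footprint libraries was left out. In TE 0 of 11 were called in either direction by edgeR, with 0 at an unadjusted p under 0.05 and 0 by DESeq2. Of all genes, 14.4% were called in TE by edgeR, so few calls would be looked for among 11. Atf6, a membrane-bound factor of the unfolded protein response, rose by 1.53 in RNA and 1.58 in footprints, and Creb5 by 2.48 and 3.10. The RNA calls of Atf6b and Atf7, the 2 that were lower, were each lost when any 1 of 5 libraries was left out.

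The share of Atf4 in the summed counts of the 16 family genes (Atf4 and these 15) moved in opposite directions in the assays. Among footprints Atf4 held 51.4% ± 2.28 in HF libraries and 27.7% ± 0.542 in control libraries (SD, n = 3). In RNA it held 41.4% ± 0.807 in HF and 49.9% ± 1.97 in control libraries. The groups did not overlap in either assay. Counts are not scaled by gene length, so the shares describe reads and not molecules.

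Known ATF4 targets were taken from 4 lists with 73 genes in all, 72 of them in the files. In RNA 38 of 64 tested were higher and 1 lower, against 22.2% and 21.4% of all genes, with a median log2 change of 0.94. Pmaip1 and Slc7a11, with few or no control RNA counts, passed the count filter through HF libraries alone, so they could only come out higher. They are kept in the RNA counts and medians of their lists. In footprints 42 of 63 were higher and 5 lower (42 and 2 by DESeq2), against 22.4% and 20.9% of all genes, with a median of 0.98. In TE 8 of 62 were higher and 3 lower (8 and 3 by DESeq2), against 6.13% and 8.23% of all genes, with a median of 0.06 against 0.00. The TE change of Atf4 itself was 2.26.

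**Figure D4:**
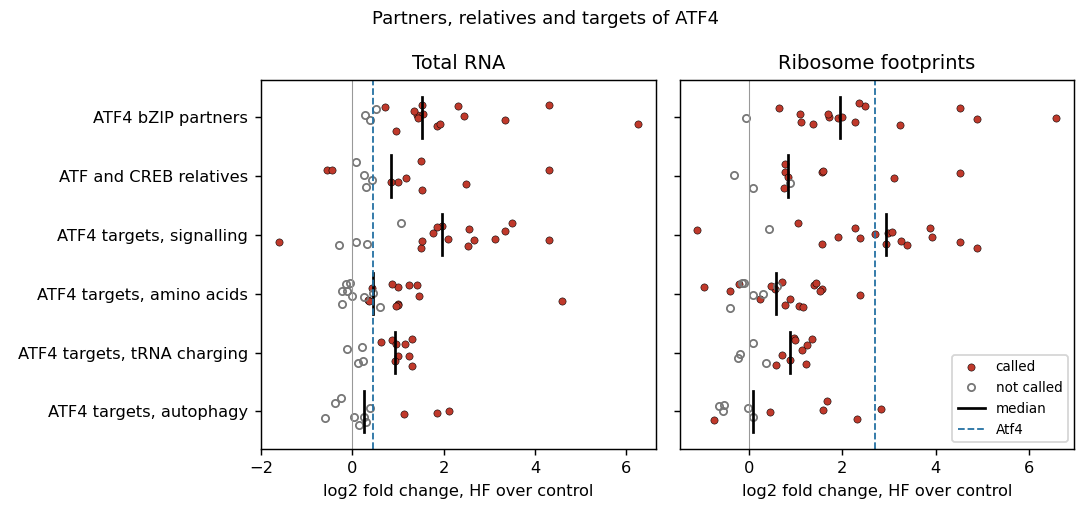
Log2 fold change of HF over control in total RNA (left) and footprints (right) for each tested member of 6 gene lists. Filled points were called at an adjusted p under 0.05, bars are list medians (such as 1.53 in RNA for the bZIP partners), and the dashed line marks Atf4. Pmaip1, with 0 control RNA counts, is not drawn on the left, and Fos and Slc7a11 there rest on 2 control counts each.

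Targets in stress signalling had the highest medians of the 4 target lists in both assays. In RNA 14 of 19 were higher and 1 lower (median 1.96), against 22.2% and 21.4% of all genes. In footprints 15 of 17 were higher and 1 lower (median 2.94), against 22.4% and 20.9%. Trib3, a pseudokinase that restrains ATF4 and CHOP, rose by 3.49 in RNA and 3.38 in footprints. Chac1, a glutathione-degrading enzyme, rose by 3.12 and 3.87, and Nupr1, a stress-induced chromatin protein, by 1.96 and 2.94. Herpud1, of protein degradation at the endoplasmic reticulum, rose by 2.10 and 2.38. Vegfa, the angiogenic factor, rose by 1.77 and 2.98 and also in TE, by 1.21 (adjusted p = 0.0016).

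Sesn2, an inhibitor of mTORC1, rose by 2.55 in RNA and 2.71 in footprints, which became 4.12 without RPF control 2. Ddit4, another mTORC1 inhibitor and the target that was lower, fell by 1.62 in RNA (38 counts over the HF and 86 over the control libraries) and by 1.10 in footprints. Its RNA change was -2.31 without RNA HF 3. Pmaip1, a proapoptotic gene, had 164 RNA counts in HF and 0 in control libraries. Its TE was called lower, but that call compares with a control at 0 and was lost without RNA control 1 or RPF control 1. Gdf15 and Fgf21, secreted stress hormones, had 0 RNA counts in both groups and 4 footprint counts each in HF cells, too few to test.

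Targets in amino acid supply were split. In RNA 12 of 21 were higher and 0 lower (14 and 0 at an unadjusted p under 0.05, 12 and 0 by DESeq2), with a median of 0.45. In footprints 13 of 22 were higher and 3 lower (13 and 4 unadjusted, 13 and 1 by DESeq2), with a median of 0.58. The shares of all genes were 22.2% higher and 21.4% lower in RNA, and 22.4% and 20.9% in footprints. Asns, asparagine synthetase, had 484, 479 and 443 RNA CPM in HF and 232, 247 and 223 in control libraries, a rise of 1.00. Its footprints were at 915, 888 and 870 CPM in HF and 527, 538 and 585 in control libraries, a rise of 0.70. The groups did not overlap in either assay.

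Aldh18a1, which makes the proline precursor, rose by 1.00 in RNA and 1.07 in footprints, while Pycr1, which completes proline synthesis, changed by -0.02 (adjusted p = 0.98) and 0.60 (adjusted p = 0.23). The transporter genes Slc7a1 and Slc3a2 rose by 1.46 and 0.96 in RNA and by 1.45 and 0.89 in footprints. Slc7a5, which pairs with Slc3a2 to import large neutral amino acids, rose by 0.35 in RNA and 1.15 in footprints, and by 0.80 in TE (adjusted p = 3.6e-04). Slc7a11, the cystine transporter, had 72 RNA counts in HF and 2 in control libraries.

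Some classical targets were not called higher in either assay. Slc38a2, a glutamine transporter, had changes of -0.14 in RNA (adjusted p = 0.25) and -0.14 in footprints (adjusted p = 0.23). Phgdh and Psat1, of serine synthesis, had RNA changes of -0.05 and -0.13 (adjusted p = 0.83 and 0.26). The footprints of Phgdh fell by 0.40 and those of Psat1 by 0.22, a call lost when any 1 of 4 libraries was left out for Psat1 and without RPF HF 3 for Phgdh.

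Of 13 genes for tRNA charging, 9 were higher and 0 lower in both RNA and footprints (10 and 0 unadjusted, 9 and 0 by DESeq2 in each), with medians of 0.93 and 0.88. Of all genes, 22.2% were higher and 21.4% lower in RNA, and 22.4% and 20.9% in footprints. Aars, Tars and Sars rose by 1.23, 1.15 and 0.95 in RNA and by 1.22, 1.15 and 0.99 in footprints. Gars and Mars, for glycine and methionine, were at 0.23 and -0.13 in RNA and were not called. Gars was called at 0.28 without RNA HF 1. In TE Yars was higher, by 0.64 (adjusted p = 0.0075), and Lars and Eprs were lower, by -0.72 (adjusted p = 0.0020) and -0.58.

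Of the autophagy targets, 3 of 11 were higher and 0 lower in RNA (4 and 0 unadjusted, 3 and 0 by DESeq2; median 0.26), near the 22.2% of all genes that were higher. In footprints 5 of 11 were higher and 1 lower (5 and 0 by DESeq2; median 0.08), against 22.4% and 20.9%. Sqstm1, the autophagy receptor p62, rose by 2.11 in RNA and 2.82 in footprints, and by 0.71 in TE (adjusted p = 1.0e-04). Nbr1, a second receptor, rose by 1.12 and 1.59, and Atg12, a conjugation factor, by 1.86 and 2.32. Becn1, which was lower in footprints at -0.75, lost that call when any 1 of 4 libraries was left out.

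The promoter windows of the targets were searched for TGATGNAA on both strands, in the 250 bases before to 50 after the start. It was present in 19 of 58 matched targets (32.8%). A promoter window was matched for 31 of the 38 targets higher in RNA and for 19 of the 25 not called, so no share by call is given. The share was 4.13% of all protein-coding genes and 3.60% of 21263 windows. Several of these genes are listed as ATF4 targets because of this element, so the share describes the lists. TGACGTCA was present in 3.45% of matched targets and 2.54% of genes. The matches of some of these genes, 1 for each, are shown because their letters are those of the element that ATF4 binds with its C/EBP partners. Each is 30 bases of RefSeq sequence (GRCm38.p6) on the strand where it reads TGATGNAA, with the match in capitals.
Atf3 (chr1:191183425-191183454, plus strand): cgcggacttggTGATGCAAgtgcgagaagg
Chac1 (chr2:119351038-119351067, minus strand): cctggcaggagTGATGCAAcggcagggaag
Nupr1 (chr7:126625562-126625591, plus strand): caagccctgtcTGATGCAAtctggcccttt
Herpud1 (chr8:94386306-94386335, minus strand): ggggtgcgggcTGATGCAAcccgccgtggt
Slc7a11 (chr3:50443661-50443690, minus strand): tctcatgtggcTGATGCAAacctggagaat
Asns (chr6:7693214-7693243, minus strand): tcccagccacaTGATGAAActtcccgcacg
Pycr1 (chr11:120643833-120643862, minus strand): tgccctgtgtaTGATGCAAtgcacaaggct

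The matches begin 110 bases before the start in Atf3 and Nupr1, 193 in Chac1, 112 in Herpud1, 66 in Slc7a11, 23 in Asns and 103 in Pycr1. Atf3, Chac1, Nupr1, Herpud1 and Asns were higher in both assays, as was Slc7a11 on 2 control RNA counts. Pycr1, which also has a match, was called in neither. Of the 19 targets with a match, 13 were higher in RNA and 4 were not called. Those 4 were Pycr1 and, not shown above, Pck2 (-0.23 in RNA), Gars (0.23) and Jdp2 (0.07). The others, Vldlr and Fgf21, were not tested in RNA. Among all 64 targets tested in RNA 38 were higher, as were 22.2% of all genes. Some targets had no matched window, and whether a match goes with higher RNA was not tested.

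No gene beside Atf4 was called higher in RNA, footprints or TE with all libraries in. Mief1, a mitochondrial fission factor gene on the uORF list that ends 1811 bp before the Atf4 start, had log2 changes of 0.09 in RNA (adjusted p = 0.74), 0.68 in footprints (adjusted p = 0.086) and 0.58 in TE (adjusted p = 0.34). Its footprint change was called at 0.90 (adjusted p = 0.046) without RPF HF 1, and its HF and control footprint values did not overlap. Like Atf4, Mief1 had few footprints per RNA in control cells, at -1.91 log2 (adjusted p = 2.0e-08 by edgeR). Unlike Atf4, it stayed low in HF cells, at -1.39. Rps19bp1, 3068 bp downstream, had 0.05 in RNA, 0.09 in footprints and 0.05 in TE, with no call. The next tested genes were Mgat3, 39664 bp away, which fell by 2.16 in RNA on 12 HF and 39 control counts, a call lost without RNA HF 1 (-1.63) and at -3.68 without RNA HF 3, and Tnrc6b, 453767 bp away, with -0.44 in RNA (adjusted p = 0.094; called at -0.61 without RNA HF 1) and 0.08 in footprints.

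The pattern of Atf4 over the 12 libraries was compared with that of 4550 protein-coding genes, by the root mean square (RMS) difference of log2 CPM values centred on each gene's mean in each assay. The median gene had an RMS difference of 1.00. The 8 nearest were H1f0 at 0.241, Eaf1 at 0.271, Tollip at 0.306, Jund and Spry2 at 0.318, Tnfrsf12a at 0.326, Tipin at 0.342 and Foxn2 at 0.356. Their Pearson correlations with Atf4 over the 12 libraries, which share treatment and assay, ran from 0.935 to 0.975.

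H1f0, a linker histone gene on the same chromosome, had 627, 728 and 573 footprint CPM in HF and 120, 156 and 111 in control libraries. In RNA it had 619, 687 and 605 CPM in HF and 343, 368 and 376 in control libraries. Its log2 changes were 0.81 in RNA, 2.30 in footprints and 1.49 in TE, against 0.46, 2.71 and 2.26 for Atf4.

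Tollip, an adaptor of Toll-like receptor signalling, and Spry2, a feedback inhibitor of receptor tyrosine kinases, had the TE changes nearest in size to that of Atf4, 1.97 and 2.04. Tollip rose by 1.19 in RNA and 3.15 in footprints, and Spry2 by 0.93 and 2.97. The TE changes of the 8 genes ran from 1.06 in Tipin to 2.04 in Spry2. The genes were chosen for their likeness to Atf4 in these libraries, so a higher TE follows from the choice and is given as a description. None of the 8 is a listed uORF mRNA, and only Jund among them is on another list used here.

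**Figure D5:**
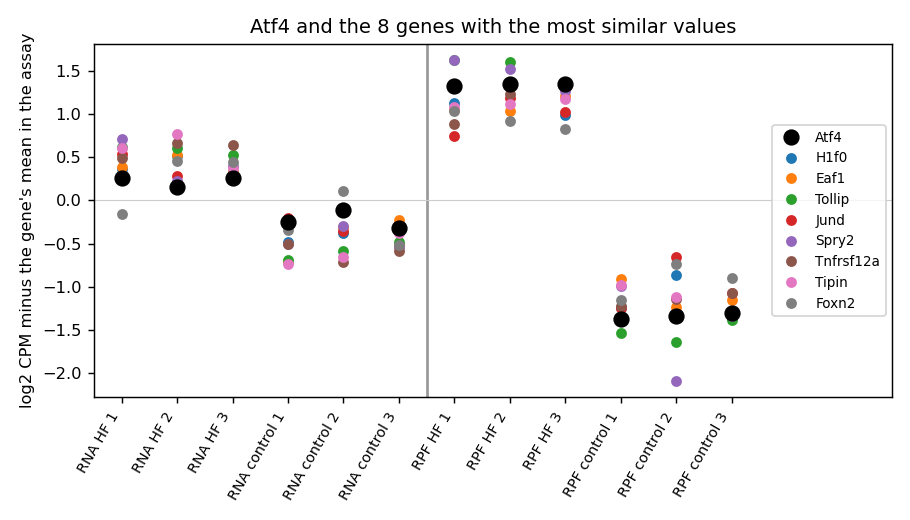
Log2 CPM minus the gene's own mean in each assay (y axis) in the 12 libraries (x axis; total RNA left, footprints right of the line), for Atf4 (large black points) and the 8 genes nearest to it. Points of HF libraries lie above 0 and those of control libraries below it, except Foxn2 in RNA HF 1 and RNA control 2, and the step among footprints exceeds that in RNA.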

How the data were processed

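The authors deposited raw read counts for every gene in each of the 12 libraries. Bowtie, HISAT2, HTSeq and GRCm38 are named, without versions, per the submitters' processing notes. Not given in the sources used here are the counted feature, strand use and the handling of multiply mapped reads. Entries without a gene numbered 0, and columns of no sample 0. Symbols came from an ID table, gene types and coordinates from RefSeq. Low counts were mostly even (67.2% to 84.0% of counts from 5 to 8), for a reason not given. If each read were entered 2 times, counting errors would be larger than stated. For Atf4 they would be 4.81% in HF and 9.37% in control footprints, and 4.43% in HF and 5.94% in control RNA.

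Each fit was made on the whole table with the quasi-likelihood test of edgeR 4.0.16 in R 4.3.3 (TMM, filterByExpr at a minimum count of 10, Benjamini-Hochberg adjustment, threshold 0.05), on counts from all genes for RNA and from protein-coding genes otherwise. SE is the log2 change divided by the square root of its F statistic. TE is the interaction of assay and treatment. Footprints over RNA used TMM over all 12 libraries. No spike-in is described, so a common shift of every gene would be missed. A gene near 0 in control libraries passed the count filter through its HF libraries alone, so it could only come out higher. Libraries of a group differed beyond sampling noise and were counted separately. The fits were also run on simulated counts with the same spread for every gene and no excess of even counts. That run does not show how they behave on the counts used here.

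Atf4, the gene lists and the rules were chosen with earlier results of these data known. The text names Atf4, list members, the 2 nearest tested genes on each side and the 8 genes most like Atf4 (mean log2 CPM of at least 5 in each assay, prior count 2). Of the list members, the called ones with large changes and some not called are named. The lists share members, so their counts are not independent. No set test was made. Alternatives were DESeq2 1.42.0, other scalings, no filter, counts divided by 2, a replicate block and leaving out each library.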

Additional observations from a re-analysis of the deposited data

How the results depend on the processing

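Of 169 alternative values, 166 kept their direction and their side of the threshold or stayed within 1.5 times a count. The Atf4 change ran from 0.40 to 0.52 in RNA, 2.61 to 2.72 in footprints and 2.18 to 2.30 in TE, and its footprints over RNA from 0.32 to 0.46 in HF cells and -1.93 to -1.75 in control cells, with adjusted p at most 0.0052 in each. Scaling by library totals alone was chosen after seeing the data. The ATF4 targets higher in TE numbered 8, and 5 to 7 when a library was left out; they numbered 5 without RNA control 1, RPF control 3 or RPF HF 2, and the cause was not tested. With the replicate number as a block, Atf4 changed by 0.46 in RNA, 2.71 in footprints and 2.26 in TE, and 39, 41 and 8 targets were higher. Same-numbered libraries correlated at -0.03 to 0.06, so no pairing by number was seen, though such values cannot exclude a shared culture. Depth limits genes with few control counts, such as Ddit3, and no library total exceeded 2527791 counts.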
